A study of Mus musculus with 6 samples.

Results

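The extracellular matrix of muscle was followed through 34 listed genes, sorted into layers by the protein each encodes. Members were found by gene symbol: a probe set counted if the annotation of the array gave it exactly 1 symbol and that symbol was on the list. This gave 51 probe sets for 31 of the 34 genes, out of 8251 genes named on the array. Thbs1 lay only on a probe set shared with Pald1, and Fbn1 and Spp1 were not matched, so these genes have no values here. The study compared soleus, a postural muscle of mainly slow fibres, between 3 samples of male wild-type C57BL/6 mice and 3 of male BERKO mice, which lack estrogen receptor beta, the product of Esr2. The strain of the knockout, the design of its allele and the ages are not given in the labels, nor whether each sample is 1 animal, so the tests measure the spread among these samples, which may be technical. Each sample was read on 1 Affymetrix array, and every value below is a signal intensity per probe set, on a linear scale that the authors had brought to a common level.

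Muscle fibres sit in layers of matrix. Each fibre is wrapped in a basement membrane, a sheet of collagen IV and laminin tied together by nidogen and perlecan. Around it lies the interstitial matrix of fibroblasts, in which fibrillar collagens I, III and V carry tension, collagen VI links the fibrils to the basement membrane, and small leucine-rich proteoglycans such as decorin bind to the fibrils. Matricellular proteins act on cells more than on mechanics, and metalloproteinases, cathepsins and their inhibitors set turnover. In intact muscle most of this RNA comes from fibroblasts, endothelial cells and other cells between the fibres.

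The 6 arrays had medians of 36.8 to 40.5 and pairs of arrays had a Pearson r of 0.948 to 0.966 over probe sets, taken as a description. Knockout replicate 2 stood apart on the leading principal component (27% of the variance) and wild-type replicate 2 on the following one (23.8%). On the next component (19.1%) wild type lay at 14.57, 1.07 and 10.62 and the knockout at -6.72, -4.88 and -14.67, without overlap. This separation was not tested. Replicate 2 of wild type and of the knockout are also the 2 arrays that share a title prefix, while the other 4 share another. What the prefix stands for is not given, so differences within each prefix are given too for the member genes where their signs differ. The Esr2 probe set read 1.3 to 3.2 in wild type against 3.9 to 8.4 in the knockout, at or near the floor of 7.8 put under low values, so the genotype could not be checked from it. All 7 markers of slow fibres on the array were above the filter, among them the slow troponin T, Tnnt1, at 8779 to 13353.

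A probe set was tested if 3 or more of the 6 arrays gave it a reading above 39.4, the median over the whole table. This held for 32 of the 51 member probe sets, covering 26 of the 31 genes. The 5 genes that did not pass are Lox, Mmp2, Mmp9, Nid1 and Tnc. Knockout and wild type were compared in limma across 6369 probe sets, of which 0 (0%) passed an adjusted p of 0.05, and 0 of the 32 member probe sets did (adjusted p = 0.923 to 0.9996). Unadjusted p was under 0.05 for 3 member probe sets lower in the knockout, 9.38%, against 2.43% of all probe sets tested, and for 0 higher in the knockout, against 2.81%. The 3 knockout arrays lay below all wild-type arrays for 6 member probe sets, 18.8%, against 5.23% of all, and above them for 0, against 5.45%. These 6 belong to Col4a1, Col4a2, Col3a1, Col5a1, Col6a1 and Ctsk. The members were chosen with earlier results of these data known, so the shares are a description. The 95% intervals of 31 of the 32 member probe sets lay within a 2-fold difference either way, and those of 21 within 1.5-fold.

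Taking the brightest tested probe set for each gene, 18 of 26 member genes were lower in the knockout and 8 higher, with a median log2 difference of -0.08. Over all 4921 genes tested 52.4% were lower, with a median of -0.01. With each array scaled to a common median instead, 13 of 26 members were lower against 38.3% of all genes, and the member median was -0.01 against 0.05. In samples of whole muscle, fewer cells of a type and less RNA per cell cannot be told apart. By layer, all 7 tested basement membrane genes were lower (median -0.23), as were 3 of 4 proteases and inhibitors (-0.14), 3 of 5 fibrillar collagens (-0.10) and the 1 tested gene of the elastic layer, Eln (-0.37). With a common median the basement membrane genes Col18a1 (0.03), Lamb2 (0.0005) and Lamc1 (0.02) were above 0, and the layer median was -0.16. With quantile normalization Col18a1 was above 0, at 0.0045. Leaving out 1 array moved the protease median between -0.30 (without wild-type replicate 1) and -0.08 (without wild-type replicate 3), and the fibrillar median between -0.14 (without knockout replicate 1) and -0.01 (without knockout replicate 3), so these layers have no settled order. Collagen VI (-0.02), the proteoglycans (0.01) and the adhesive and matricellular glycoproteins (0.01), each with 3 tested genes, held members on both sides of 0. Differences between layers were not tested.

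**Figure D1:**
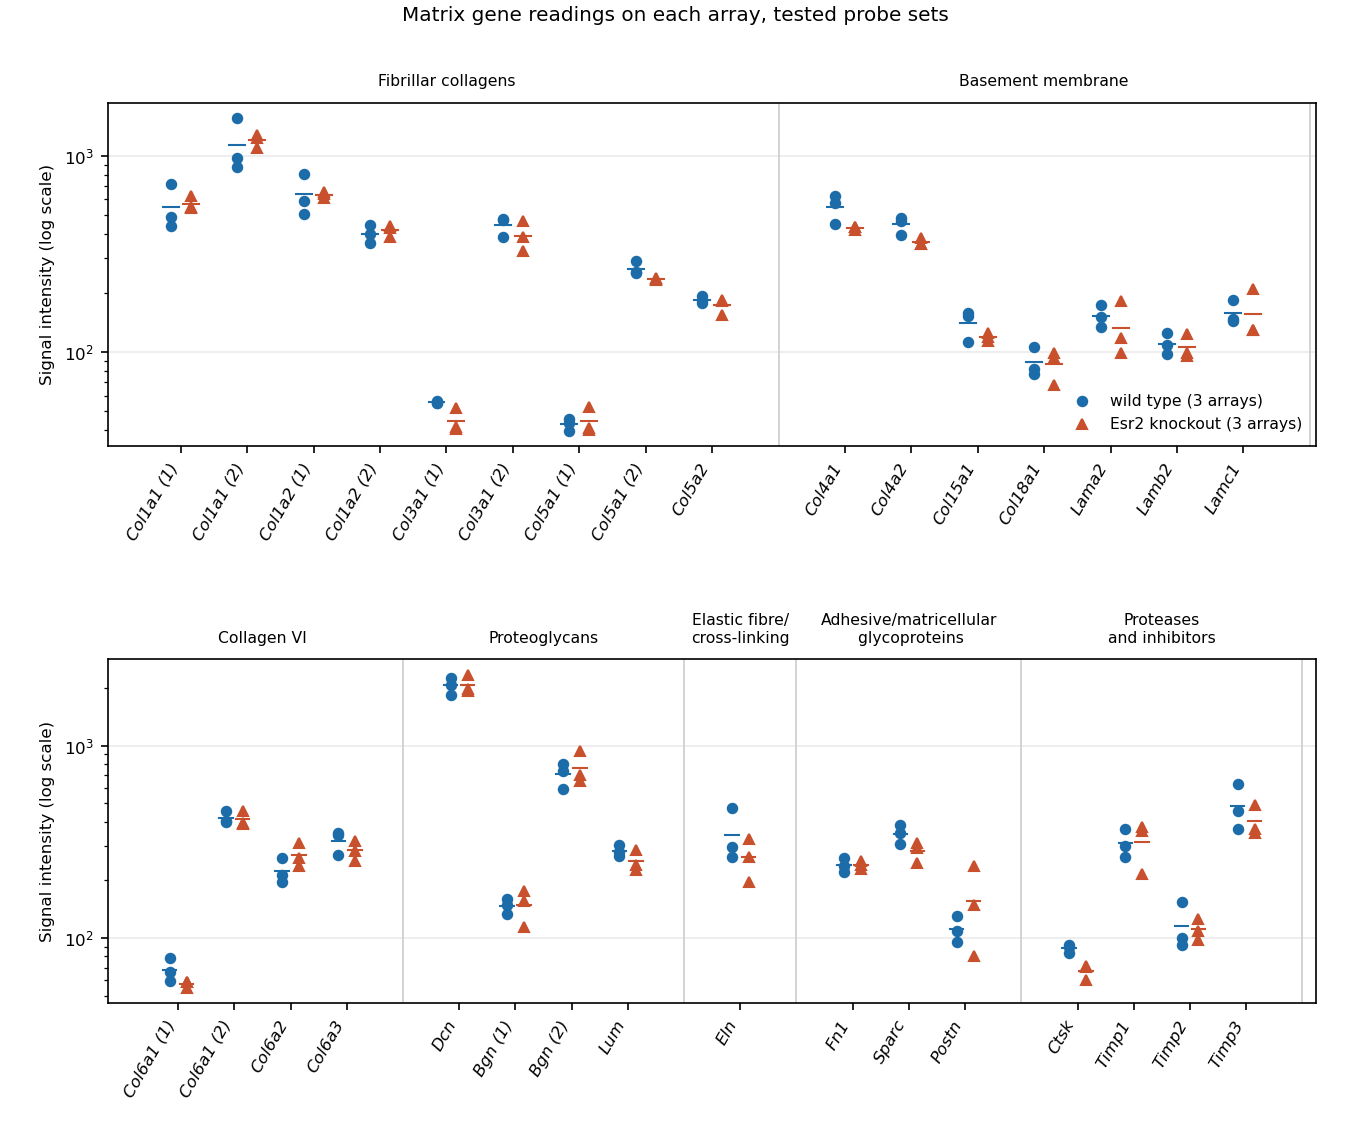
Signal intensity (log axis) of the 32 tested member probe sets on each array, circles for the 3 wild-type and triangles for the 3 knockout arrays, with bars at the group means; numbers in brackets tell probe sets of 1 gene apart. Most groups overlap, while Col4a1, Col4a2, Ctsk, the dimmer probe sets of Col3a1 and Col6a1 and the brighter one of Col5a1 show all 3 triangles below all 3 circles.

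The start of Col4a1 and Col4a2 is shown because these collagen IV genes were the basement membrane members whose groups did not overlap, and because they stand head to head. In the RefSeq table of GRCm38.p6, Col4a2 starts at position 11312805 of chr8 on the plus strand and Col4a1 at 11312826 on the minus strand, so that the 22 bases between and including the starts lie in both transcribed units. They are printed on the plus strand, chr8:11312805-11312826, with the first base of each gene in capitals, Col4a2 at the left and Col4a1 at the right.
Col4a2 to Col4a1: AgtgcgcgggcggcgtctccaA

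The 250 bases before the start were available for 21 of the 31 member genes, in 25 windows since some genes have several starts, and were searched on both strands for the sites of estrogen receptors, the proteins at the centre of the study. The full palindrome, GGTCA and TGACC 3 bases apart, was found in 0 of the 25 windows and in 0.0639% of 32851 windows of all genes. Its half-site GGTCA, of which the palindrome holds a copy on each strand, was found in 4 windows, 16%, against 35.2% of all. Those 4 are printed from RefSeq, 5′ to 3′ on the strand of the gene, with the half-site in capitals and 10 bases on each side. They begin 138 bases before the start in Postn (chr3:54359119-54359143, plus strand), 180 in Col15a1 (chr4:47207822-47207846, plus), 72 in Col6a2 (chr10:76623462-76623486, minus) and 45 in Sparc (chr11:55420111-55420135, minus).
Postn: atcactcttcTGACCtggcctctgt
Col15a1: agttccccttGGTCAaggttttggg
Col6a2: ccccacccgcTGACCccgcccatcc
Sparc: gttccagcccTGACCctcatgtctg
The differences of these genes, given with their layers, point to both sides of 0. A GC box, GGGCGG, stood in 13 of the 25 windows, 52%, against 32.7% of all, and TATAAA in 4, 16%, against 12.4%. The median share of G and C bases was 57.2% in the member windows against 52.4% in all windows. Its part in the motif shares was not tested. A match only says that these letters are present.

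With all arrays, the basement membrane gave the lowest median of the layers with more than 1 tested gene, but this order was not stable. The proteases and inhibitors were lower without wild-type replicate 1 (-0.30 against -0.15) and without wild-type replicate 2 (-0.19 against -0.15). They were also lower among the 4 arrays of 1 prefix (-0.25 against -0.24). Leaving out any other array kept the basement membrane lowest. Col4a1 encodes the major collagen IV chain, 2 copies of which join 1 chain from Col4a2 in each network-forming molecule. Col4a1 read 626.0, 448.5 and 570.5 in wild-type replicates 1, 2 and 3 and 434.9, 417.6 and 433.0 in the knockout, in the same order. The means were 548.3 ± 90.8 and 428.5 ± 9.49 (SD, n = 3 each). The ratio of knockout to wild type was 0.789, with a 95% interval of 0.637 to 0.977 (limma, adjusted p = 0.923). All 3 knockout readings were lower, closely spaced, and the wild-type spread was set by replicate 2.

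Col4a2 read 461.9, 396.4 and 480.3 in wild type against 381.2, 354.5 and 353.1 in the knockout, 446.2 ± 44.1 against 362.9 ± 15.8 (SD, n = 3 each). The ratio was 0.816, with a 95% interval of 0.678 to 0.981 (limma, adjusted p = 0.923). Both chains thus had their lowest wild-type reading in replicate 2 and no overlap with the knockout. Within the 4 arrays that share a title prefix the log2 differences were -0.46 for Col4a1 and -0.36 for Col4a2, and between the other 2 arrays they were -0.10 and -0.16. Both stayed below 0 in all 17 alternative fits, with adjusted p from 0.469 to 0.9993 for Col4a1 and from 0.479 to 0.9993 for Col4a2.

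Col15a1 encodes collagen XV, which bridges the basement membrane to the fibrils outside it. It read 158.4, 153.2 and 112.0 in wild type against 125.3, 119.0 and 113.3 in the knockout. The groups overlapped because wild-type replicate 3 was the lowest of all 6 arrays, and the ratio was 0.853 (95% interval 0.662 to 1.10). Collagen XVIII, from Col18a1, whose cleaved end is endostatin, had 1 tested probe set, at 76.8 to 106.2 in wild type against 67.7 to 98.6 in the knockout. Its other 4 probe sets stayed at 36.2 or below on every array and were not tested.

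The laminin chains on the member list gave overlapping groups. Lama2, whose loss causes a congenital muscular dystrophy, read 150.6, 174.4 and 134.3 in wild type against 117.3, 182.5 and 98.8 in the knockout, a ratio of 0.843 (95% interval 0.596 to 1.19). Its difference was -0.40 within the 4 arrays of 1 prefix and 0.07 between the other 2, and replicate 2 was the highest array of each group. Lamb2 had a ratio of 0.956 and the brighter probe set of Lamc1 one of 0.966, both with groups that overlapped. Nid1, the nidogen that ties laminin to collagen IV, read 17.0 to 29.4 in wild type against 13.5 to 20.6 in the knockout, under the filter throughout.

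**Figure D2:**
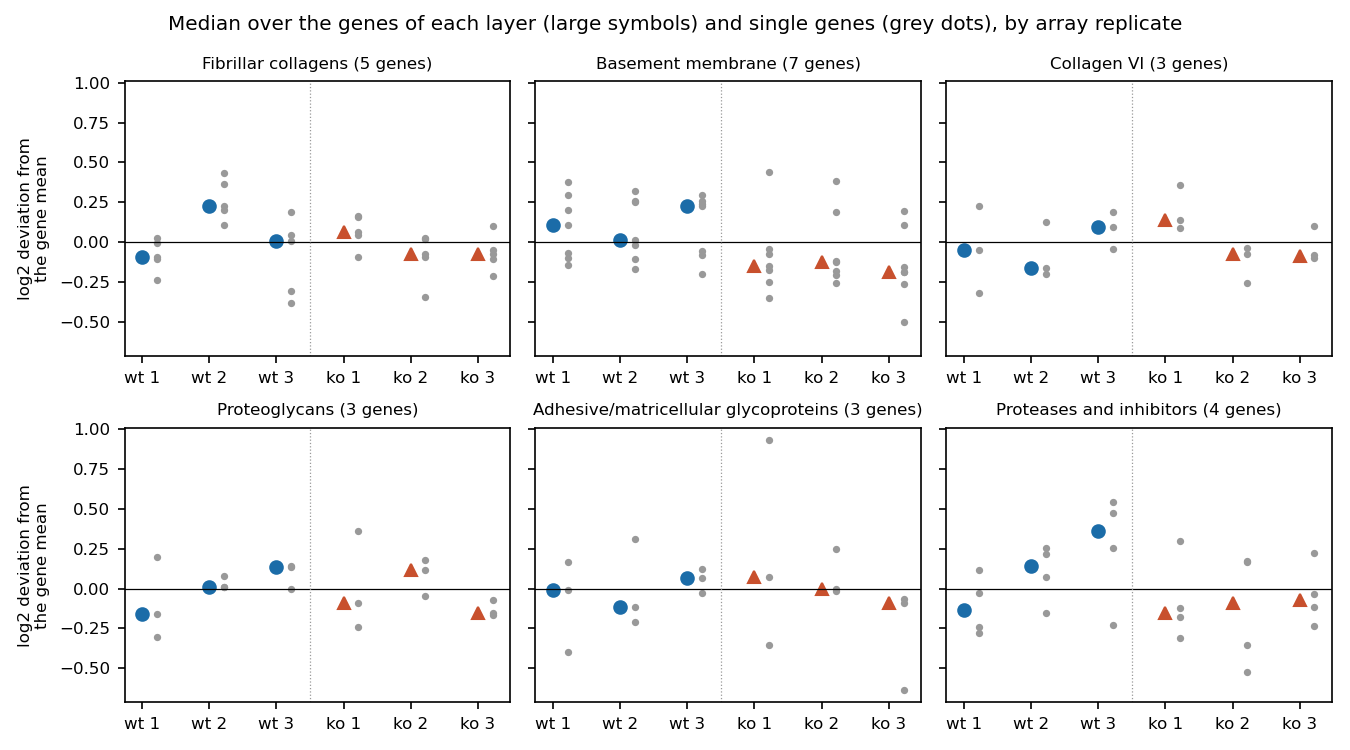
For each array (x axis, replicates of wild type, wt, and knockout, ko, with no order among replicates), the log2 deviation of each gene from its mean over the 6 arrays (grey dots) and the median over the genes of the layer (circles for wild type, triangles for knockout). In the basement membrane the medians were 0.02 to 0.22 on the wild-type and -0.19 to -0.12 on the knockout arrays; the medians of every other layer shown overlap between the groups.

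The medians of the basement membrane layer did not overlap between the groups, at 0.11, 0.02 and 0.22 on the wild-type arrays and -0.15, -0.12 and -0.19 on the knockout arrays. This was not particular to the layer: the medians of the other basement membrane genes, of other proteases and inhibitors and of fibroblast markers, lists described further on, were also lower on all 3 knockout arrays, and those of fast fibre markers higher. The layer median remained at -0.15 to -0.27 when 1 array was left out. It moved most without wild-type replicate 2, to -0.15. Among the 4 arrays of 1 prefix 6 of the 7 genes were lower, and between the other 2 arrays 5 of 7.

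Among fibrillar collagens, type I collagen, the main load-bearing fibril, is made of chains from Col1a1 and Col1a2. The brighter Col1a1 probe set read 973.8, 1551.0 and 878.4 in wild type against 1281.3, 1090.6 and 1227.9 in the knockout. The brighter Col1a2 probe set read 587.2, 809.1 and 506.3 in wild type against 655.6, 635.4 and 607.2 in the knockout. In both chains, and in the other probe set of each, wild-type replicate 2 was the highest and wild-type replicate 3 the lowest of the 6 arrays, and the knockout lay between them. The ratios were 1.09 for Col1a1 (95% interval 0.807 to 1.47) and 1.02 for Col1a2 (0.788 to 1.31). Within the 4 arrays of 1 prefix both were higher in the knockout, by 0.44 and 0.21 on the log2 scale, and between the other 2 both were lower, by -0.51 and -0.35.

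Col3a1, the chain of the thinner collagen III fibrils, read 383.7, 476.1 and 470.9 in wild type against 463.8, 325.9 and 385.0 in the knockout on its brightest probe set, with overlap (ratio 0.878, 95% interval 0.689 to 1.12). A dimmer one read 55.0, 56.3 and 55.2 against 40.6, 41.3 and 51.9, without overlap (ratio 0.799, 0.575 to 1.11). The third was not tested, at 24.8 to 47.2.

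Collagen V regulates fibril diameter. The brighter Col5a1 probe set read 254.1, 292.1 and 251.2 in wild type against 234.0, 233.6 and 237.1 in the knockout, 265.8 ± 22.8 against 234.9 ± 1.92 (SD, n = 3 each). The groups did not overlap and the ratio was 0.886, with an interval that included 1 (95%, 0.736 to 1.07). The other Col5a1 probe set, close to the filter, gave 39.7, 45.6 and 43.5 against 52.2, 40.2 and 40.8, and a ratio of 1.03. Col5a2 read 177.7, 192.2 and 184.4 in wild type against 184.2, 182.3 and 153.9 in the knockout, a ratio of 0.936 (95% interval 0.765 to 1.15).

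The 3 collagen VI genes, whose chains assemble into 1 microfibril and whose mutations cause muscle disease, did not share a direction. The brighter Col6a1 probe set read 402.3, 455.7 and 404.2 in wild type against 458.7, 395.7 and 389.3 in the knockout, a ratio of 0.984 (95% interval 0.817 to 1.19). A dimmer Col6a1 probe set read 78.3, 59.9 and 66.3 against 55.1, 58.8 and 58.9, without overlap (ratio 0.850, 0.640 to 1.13). Col6a2 read 194.3, 211.1 and 259.8 in wild type against 311.7, 236.2 and 260.9 in the knockout. The Col6a2 groups overlapped at wild-type replicate 3, and the ratio was 1.22 (0.952 to 1.56). Col6a3 read 351.2, 268.3 and 341.9 in wild type against 319.8, 251.2 and 283.4 in the knockout, a ratio of 0.891 (0.706 to 1.12), with replicate 2 the lowest array of each group. The sign of the brighter Col6a1 probe set turned with the scaling, to 0.04 with a common median, while Col6a2 stayed above and Col6a3 below 0 in all 17 alternative fits.

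Small proteoglycans of the fibril surface had overlapping groups. Decorin, from Dcn, read 1838.1, 2072.3 and 2257.7 in wild type against 1931.4, 2327.2 and 1958.7 in the knockout, 2056 ± 210.3 against 2072 ± 221.1 (SD, n = 3 each), a ratio of 1.01 (95% interval 0.846 to 1.20). Biglycan, from Bgn, read 592.8, 735.2 and 806.3 in wild type against 940.4, 706.7 and 652.7 in the knockout on its brighter probe set, a ratio of 1.07 (0.830 to 1.39). The dimmer one gave 0.995. Lumican, from Lum, read 303.7, 279.9 and 264.9 in wild type against 224.5, 286.8 and 238.3 in the knockout, a ratio of 0.880 (0.713 to 1.09). The sign for Dcn turned with quantile normalization, to -0.10.

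Elastin, from Eln, gives elastic fibres their recoil. Its brighter probe set read 295.2, 262.4 and 471.2 in wild type against 327.5, 194.9 and 264.8 in the knockout, a ratio of 0.774 with a wide interval (95%, 0.527 to 1.14). Wild-type replicate 3 stood far above the others, and knockout replicate 2 was the lowest. The log2 difference of -0.37 became -0.12 without the first and -0.17 without the second. Lox, the enzyme that cross-links elastin and collagen, read 15.5 to 35.6 in wild type against 4.0 to 33.6 in the knockout over its 2 probe sets, under the filter.

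Among adhesive and matricellular proteins, fibronectin, from Fn1, read 236.5, 219.6 and 259.4 in wild type against 250.8, 238.3 and 227.9 in the knockout, a ratio of 1.00 (95% interval 0.829 to 1.21). Its groups covered nearly the same range. Sparc, which binds collagen and takes part in its assembly, read 350.7, 387.0 and 306.9 in wild type against 244.8, 309.6 and 293.7 in the knockout, 348.2 ± 40.1 against 282.7 ± 33.8 (SD, n = 3 each). Only wild-type replicate 3 and knockout replicate 2 crossed, by a few units, and the ratio was 0.812 (0.652 to 1.01; limma, adjusted p = 0.923). The Sparc difference was -0.29 within the 4 arrays of 1 prefix and -0.32 between the other 2, and it stayed below 0 in all 17 alternative fits.

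Periostin, from Postn, a protein of loaded and remodelling connective tissue, had the largest standard error of the tested members, 0.33 on the log2 scale. It read 94.7, 108.1 and 130.5 in wild type against 237.6, 147.9 and 80.3 in the knockout, so that the knockout held both the highest and the lowest array. The ratio was 1.28, with a 95% interval of 0.763 to 2.16, the only member interval that reached beyond 2-fold. The log2 difference of 0.36 became -0.02 without knockout replicate 1 and 0.77 without knockout replicate 3. Tenascin C, from Tnc, which is low in resting adult muscle outside tendon junctions, read 33.1 or less in wild type against 31.1 or less in the knockout.

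Cathepsin K, from Ctsk, a collagen-cutting cysteine protease of osteoclasts and fibroblasts, showed the lowest ratio of the tested proteases and inhibitors. It read 83.5, 89.5 and 91.7 in wild type against 70.7, 60.2 and 71.1 in the knockout, 88.2 ± 4.24 against 67.3 ± 6.18 (SD, n = 3 each), without overlap. The ratio was 0.762, with a 95% interval of 0.597 to 0.971 (limma, adjusted p = 0.923). The difference was -0.30 within the 4 arrays of 1 prefix and -0.57 between the other 2, and it ran from -0.43 to -0.30 over its 16 alternative fits (adjusted p = 0.588 to 0.9993). Ctsk was not tested at the stricter filter.

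Both member metalloproteinases read low. Mmp2 read 3.1 to 22.9 in wild type against 2.3 to 16.3 in the knockout over its 2 probe sets, and Mmp9 read 2.7 to 9.7 and 1.5 to 7.3. No level can be compared there. Mmp14, a membrane-bound metalloproteinase outside the member list, was measured at 125.0 to 149.8 in wild type against 126.7 to 162.9 in the knockout. The inhibitors were measured. Timp3, which is bound to the matrix, read 367.7, 456.0 and 632.0 in wild type against 350.4, 488.5 and 369.7 in the knockout, a ratio of 0.842 (95% interval 0.612 to 1.16). The Timp3 difference of -0.25 became -0.04 without wild-type replicate 3 and -0.43 without wild-type replicate 1. Timp2 read 91.6 to 154.1 in wild type against 98.0 to 125.0 in the knockout, a ratio of 0.980 (0.708 to 1.36). For both, wild-type replicate 3 was the highest of the 6 arrays. Timp1, an injury-responsive inhibitor, read 262.3 to 366.1 in wild type against 213.9 to 377.9 in the knockout, a ratio of 1.00 (0.708 to 1.41). The Timp1 difference was 0.39 within the 4 arrays of 1 prefix and -0.78 between the other 2.

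**Figure D3:**
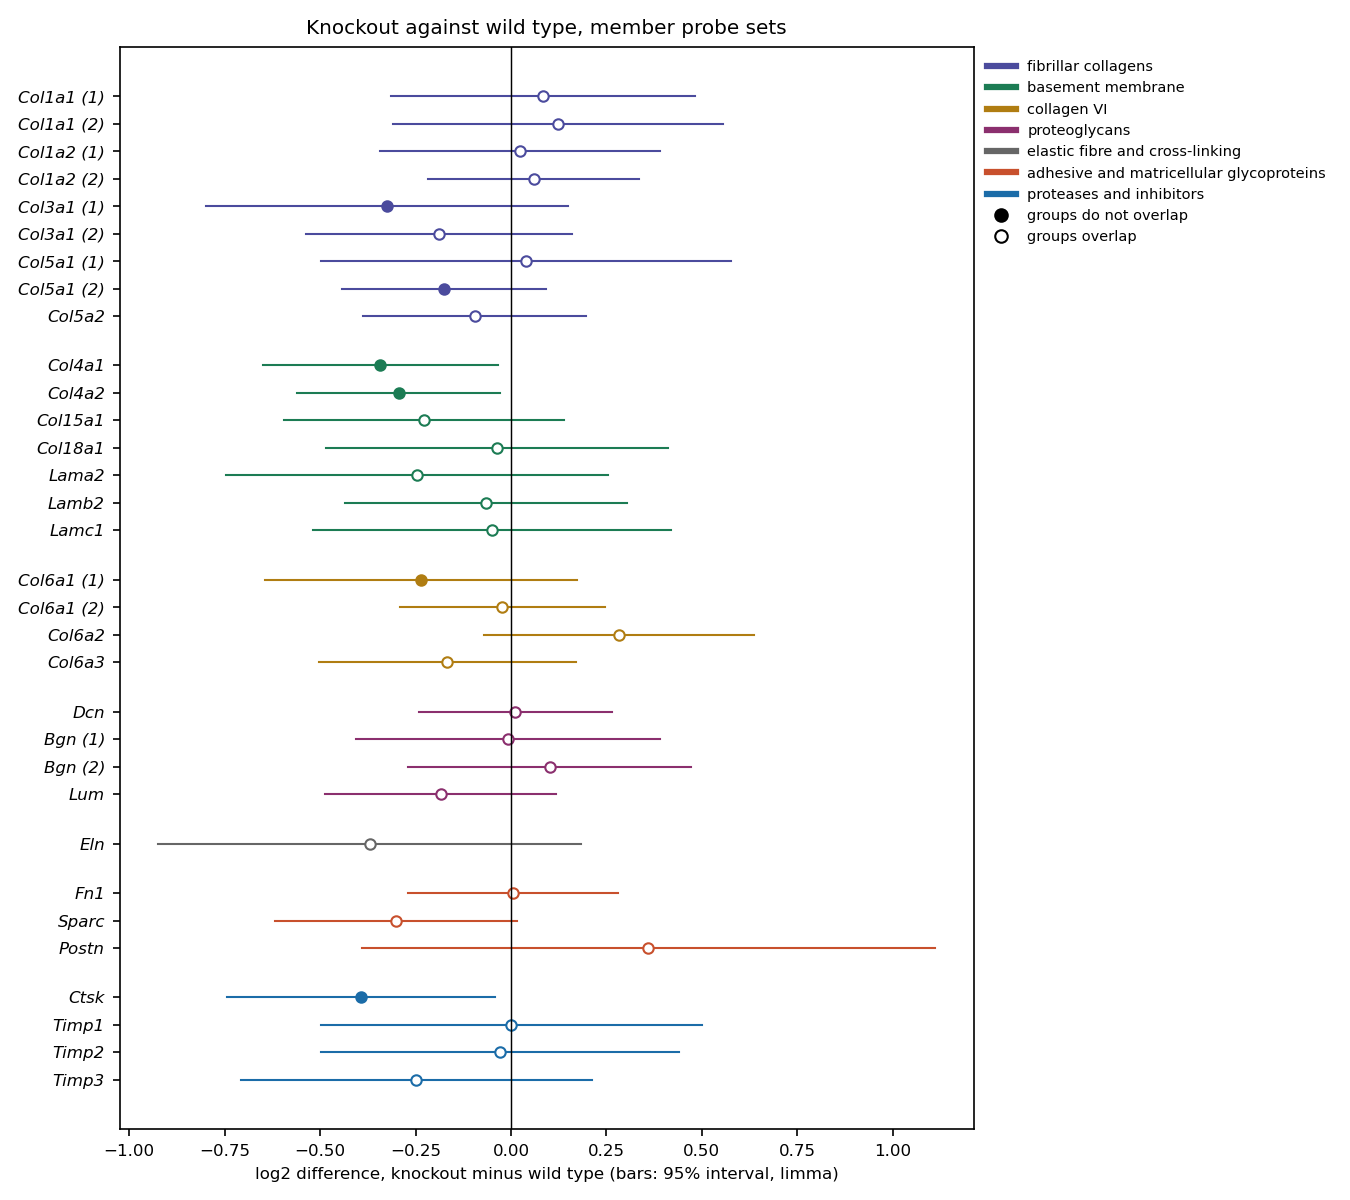
Log2 difference, knockout minus wild type, of the 32 tested member probe sets, coloured by layer, with the 95% interval from limma; filled points mark probe sets whose groups do not overlap. The 7 basement membrane points lie below 0, and the intervals of Col4a1, Col4a2 and Ctsk are the 3 that leave out 0 before adjustment over all probe sets.

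Of the 6 member genes with 2 tested probe sets, 4 gave the same sign on both: Col1a1, Col1a2, Col3a1 and Col6a1. Col5a1 and Bgn did not, at -0.17 and 0.04 for Col5a1 and 0.10 and -0.01 for Bgn. Wild-type replicate 3 was the highest array for 8 of the 26 genes and knockout replicate 3 for 0, and knockout replicate 2 was the lowest for 7. Within the 4 arrays of 1 prefix 18 of 26 genes were lower in the knockout and between the other 2 arrays 17, and 11 genes were lower in both. The sign differed between the prefixes for 13 genes. Besides Col1a1, Col1a2, Lama2 and Timp1, given above, lower among the 4 arrays and higher between the 2 were Timp3 (-0.42 and 0.10), Lum (-0.29 and 0.04), Col18a1 (-0.24 and 0.36), Timp2 (-0.20 and 0.32), Dcn (-0.07 and 0.17) and Fn1 (-0.05 and 0.12). The reverse held for Lamc1 (0.18 and -0.51), Bgn (0.18 and -0.06) and Col6a1 (0.07 and -0.20).

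Further matrix genes from 6 lists had 55 tested genes, of which 39 were lower and 16 higher, with a median of -0.10 and a range of -0.50 to 0.94. Of these 0 passed the adjusted threshold. All 6 tested basement membrane genes outside the member list were lower with the deposited scaling (median -0.14), with Lama5 (-0.01) close to 0. Among them Lamb1, a laminin beta chain, read 82.6, 94.2 and 71.4 in wild type against 70.6, 67.4 and 77.4 in the knockout, and Col7a1, the collagen of anchoring fibrils, stood at -0.28. Perlecan, Hspg2, the heparan sulfate proteoglycan of the sheet, stood at -0.06. On these tested probe sets the groups overlapped. A second Lamb1 probe set, under the filter and not tested, was higher in the knockout without overlap. It read 23.8, 22.5 and 24.2 in wild type against 28.7, 25.6 and 37.9 in the knockout.

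Collagen-processing genes had 7 of 11 members lower (median -0.04). P4hb, protein disulfide isomerase and a prolyl hydroxylase subunit, had the largest difference of the further genes, 0.94, with readings of 77.8, 449.9 and 131.2 in wild type against 399.7, 244.0 and 331.1 in the knockout. Its groups overlapped, and its other tested probe set stood at -0.50. Plod3, a lysyl hydroxylase, read 88.9, 94.7 and 90.1 in wild type against 128.5, 132.2 and 92.2 in the knockout, with overlap between wild-type replicate 2 and knockout replicate 3. The prolyl hydroxylase subunit P4ha2 gave -0.10 on its brighter and -0.41 on its dimmer probe set. Serpinh1, the collagen chaperone, stood at -0.30 with groups that overlapped.

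Other interstitial genes had 8 of 11 lower (median -0.21), with Mfap4 highest at 0.68 and overlapping groups. Dermatopontin, Dpt, which binds decorin, read 96.6, 108.8 and 80.7 in wild type against 68.3, 75.3 and 82.3 in the knockout. Tenascin X, Tnxb, which spaces collagen fibrils, was on the other side: 233.1, 309.7 and 301.4 in wild type against 338.1, 362.9 and 315.6 in the knockout, without overlap. A second Tnxb probe set also did not overlap, at 176.1, 191.5 and 209.7 against 222.2, 238.3 and 223.9 (log2 differences 0.28 ± 0.14 and 0.25 ± 0.12, SE).

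Other proteases and inhibitors had 6 of 7 lower (median -0.15). Cathepsin S, Ctss, an enzyme of antigen-presenting cells, read 144.4, 102.3 and 189.1 in wild type against 123.6, 94.0 and 85.2 in the knockout, and Serpinf1 stood at -0.30. Both groups overlapped. Matrix receptors had 4 of 10 lower (median 0.01), with the dystroglycan gene Dag1 at 694.6, 675.4 and 745.2 in wild type against 740.4, 699.4 and 722.0 in the knockout, and the syndecan Sdc2 at -0.30. The integrin subunit Itgav stood at 0.01 on its brighter and -0.36 on its dimmer probe set. Of 10 tested genes of TGF-beta signalling, the pathway that drives matrix synthesis, 8 were lower (median -0.12), among them Ski (-0.03) and Tgif1 (-0.01) close to 0. The list mixes genes that carry the signal with genes that inhibit it, so the count gives no direction for the pathway. Tgfb1, Tgfb2, Tgfbr1, Tgfbr2, Smad3 and Ltbp1 did not pass the filter and were not tested. Tgfbr3, a co-receptor, read 48.7, 45.0 and 53.2 in wild type against 40.2, 29.5 and 42.8 in the knockout, without overlap, and the inhibitory Smad7 stood at -0.37 with overlap.

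**Figure D4:**
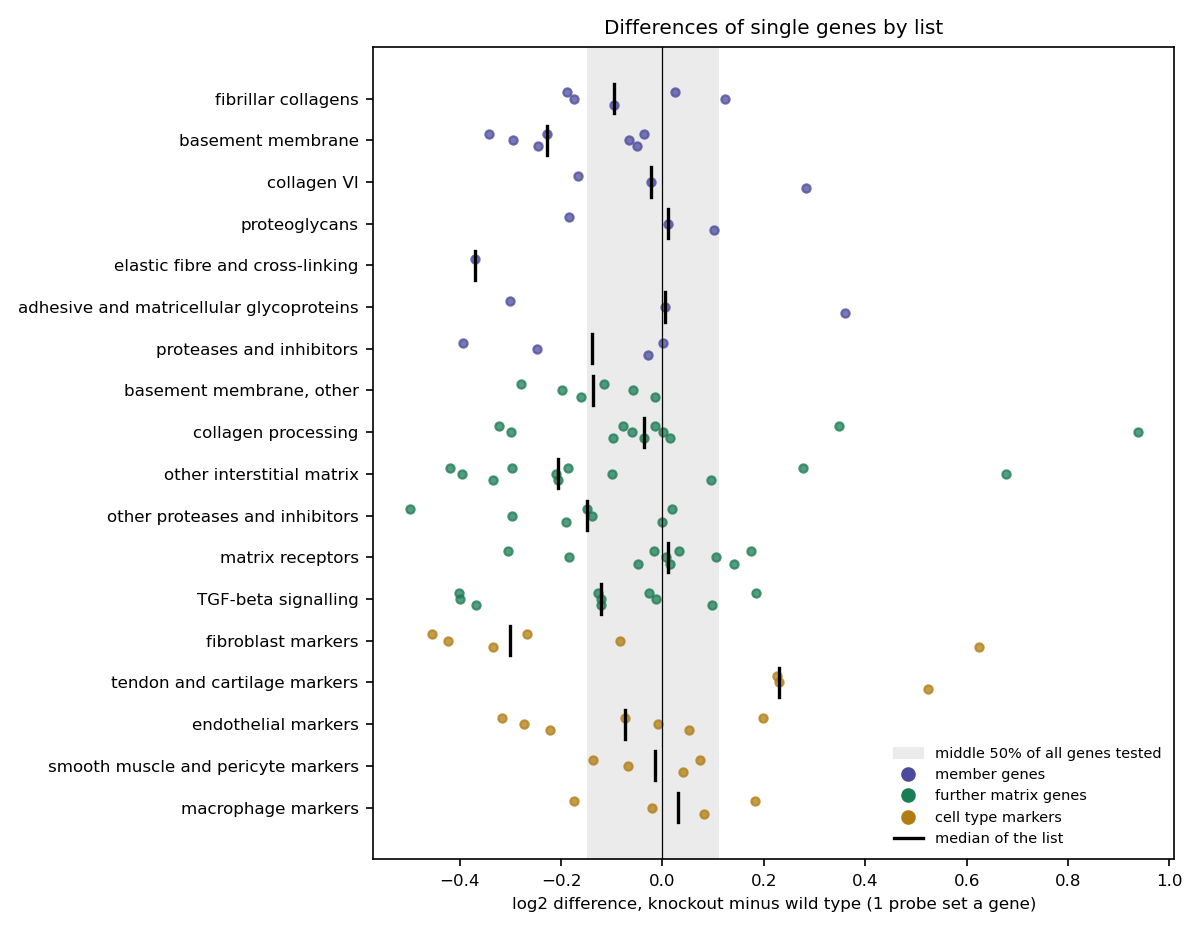
Log2 difference, knockout minus wild type, of each tested gene (1 probe set a gene) in the member layers, the further matrix lists and 5 lists of cell type markers, with the median of each list as a bar and the middle 50% of all 4921 genes as a grey band (-0.15 to 0.11). The medians of the basement membrane (-0.23), the elastic fibre layer (-0.37, 1 gene), other interstitial matrix (-0.21), other proteases and inhibitors (-0.15, at the edge) and fibroblast markers (-0.30) lie left of the band, the tendon and cartilage median (0.23) right of it.

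Readings of cell type markers are given beside these genes. Of 6 tested fibroblast markers 5 were lower in the knockout (median -0.30), and the readings of the 7 on the array summed to 809.8 to 937.3 in wild type against 612.7 to 799.2 in the knockout, without overlap. One of them, Dpt, is also counted among the other interstitial genes. Each gene entered the sums by its brightest probe set. On that probe set Mfap5, a microfibril protein of fibroblasts, read 206.7, 191.3 and 197.1 against 169.9, 130.8 and 136.2. The receptor Pdgfra read 259.1, 257.5 and 377.1 against 197.9, 313.4 and 168.3. On their dimmer tested probe sets Mfap5 stood at 0.04, Pdgfra at 0.13 and Cd34 at -0.09, all with overlap. Thy1 stood at 0.62 with overlap. None of these passed the adjusted threshold. The part of the fibroblast markers in the matrix differences was not tested.

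Tendon and cartilage markers pointed the other way. All 3 tested were higher in the knockout (median 0.23), and the 5 on the array summed to 1353.2 to 1654.3 in wild type against 1405.7 to 2083.5 in the knockout. Fibromodulin, Fmod, read 764.8, 1291.3 and 791.8 in wild type against 1173.7, 984.7 and 1092.6 in the knockout. As in type I collagen, its highest array was wild-type replicate 2. The tendon factor Scx read 393.0, 114.0 and 322.8 in wild type against 617.8, 141.1 and 493.7 in the knockout, lowest on replicate 2 of each group, the 2 arrays with the other title prefix. Chad read 248.3, 228.0 and 194.8 against 266.2, 259.2 and 255.7, without overlap. How much tendon each sample held is not given, and its part in the collagen readings was not tested.

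Endothelial markers, from cells that make collagen IV, had 5 of 7 lower (median -0.07), with sums of 1112.3 to 1321.5 in wild type against 1211.3 to 1246.1 in the knockout. Tek read 73.2, 75.3 and 81.3 against 60.3, 61.3 and 68.6, without overlap, while Cdh5 stood at 0.05 and Eng at 0.20. Smooth muscle and pericyte markers (2 of 4 lower, median -0.01) and macrophage markers (2 of 4, 0.03) overlapped in their sums, at 748.5 to 871.3 against 774.3 to 832.7 and at 462.5 to 682.2 against 486.6 to 549.3. Both tested Schwann cell markers and both of red blood cells were lower (medians -0.16 and -0.34). Wild-type replicate 1 stood high for both red blood cell markers: Hba-a1 read 4499.9, 1662.2 and 1788.0 in wild type against 2029.4 to 2277.4 in the knockout, and Alas2 read 166.7, 42.0 and 76.4 against 50.3 to 59.6. Of 3 adipocyte markers 2 were lower (-0.06), with adiponectin, Adipoq, at 81.4, 231.8 and 222.1 in wild type against 70.3, 120.1 and 75.8 in the knockout, a ratio of 0.534 (95% interval 0.295 to 0.969; limma, adjusted p = 0.923). Fibre markers were mostly higher, 6 of 7 for slow fibres (0.17) and 6 of 8 for fast fibres (0.23), while Myh4, the fast IIb myosin, read 1610.0, 3670.9 and 499.4 in wild type against 211.0, 790.7 and 73.8 in the knockout. Actn3, the other fast marker that was lower, stood at -1.48 on its brighter probe set and at -1.16, without overlap, on its dimmer one. The slow myosin Myh7 stood at 0.07 on its brighter probe set and at -0.60, without overlap, on its dimmer one. On its brightest probe set no marker on any list was at the floor on all 6 arrays, while dimmer probe sets of some markers were. Fap, Col2a1, Acan, Adgre1, Mrc1, Itgam, Cnn1 and S100b did not pass the filter and were not tested.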

How the data were processed

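The authors deposited 1 table of signal intensities, 1 value per probe set and array, on a linear scale. The sources used here do not name the software behind it. On each deposited array the mean trimmed by 2% at each end was 100.07 to 100.08, and that scaling was kept. Of 12488 probe sets, 66 were controls, and 10833 had exactly 1 symbol in the array annotation, 396 several and 1193 none. Values under the 20th percentile, 7.8, were set to it and taken to log2. Probe sets above the median, 39.4, on at least 3 of 6 arrays (6369, for 4921 genes) were compared in limma 3.58.1 under R 4.3.3 (lmFit, then eBayes with a trend; two-sided), and p-values were adjusted by Benjamini-Hochberg across these probe sets; the steps were tested on simulated data. A ratio is 2 to the power of the log2 difference. Figures were drawn with matplotlib 3.10.9. Sequences are from RefSeq, GRCm38.p6.

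The members, lists and naming rule (the 3 members of each layer with the smallest p, of which Timp2 is given by its range, members whose groups do not overlap, and 2 genes per further list) were chosen with earlier results of these data known. Per-array values of Col1a1, Col1a2 and Lama2 and the further genes Hspg2, P4hb, Serpinh1, Mfap4, Mmp14 and Dag1 and the markers named were chosen after their values were seen. The number of arrays limits precision: the smallest p that exact permutation of 3 and 3 arrays allows is 0.1, and the median standard error was 0.18. Alternatives were other scalings, floors, filters, variance models and blocks, leaving out each array, and the mean over a gene's probe sets.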

Additional observations from a re-analysis of the deposited data

How the results depend on the processing

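With 3 arrays a group only differences well beyond the spread could pass. Of 17 alternative fits, 0 called a member probe set, with a smallest member adjusted p of 0.469 in limma. Over all probe sets tested 1 was called with no filter and 1 with adjacent title numbers as a replicate block, and 0 to 1 when leaving out an array. The deviations of arrays with adjacent title numbers from their group means correlated at -0.005, 0.035 and -0.003 across probe sets. The labels do not say what the numbers stand for, so these values cannot tell whether the arrays were paired. Tnc, added by no filter, took the glycoprotein median to 0.14. Without 1 array, the basement membrane median ran from -0.27 to -0.15. The median over members was below 0 in all 18 alternatives.

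Of 540 member differences under alternatives 54 changed sign, in 16 probe sets; the cause was not tested. Quantile normalization gave Col1a2 -0.0079, Col18a1 0.0045, Dcn -0.097, the dimmer Bgn 0.014, Timp1 -0.0071 and Timp2 0.0050. A common median gave Col18a1 0.0295, Lamb2 0.0005, Lamc1 0.016, Col6a1 0.043, the dimmer Bgn 0.059 and Timp2 0.038. Array weights gave Lamb2 0.014, Dcn -0.0068, the dimmer Bgn 0.13 and Fn1 -0.014. The 4 arrays of 1 prefix gave Lamc1 0.18, Col6a1 0.0675, Dcn -0.067, the dimmer Bgn 0.23 and Fn1 -0.051. Leaving out each array gave -0.038 to 0.37 and -0.062 to 0.30 for the Col1a1 probe sets, -0.12 to 0.21 and -0.019 to 0.13 for Col1a2, -0.082 to 0.11 for the dimmer Col5a1, -0.14 to 0.13 for Col18a1, -0.18 to 0.030 for Lamb2 and -0.28 to 0.069 for Lamc1. The same gave -0.098 to 0.036 for Col6a1, -0.075 to 0.081 for Dcn, -0.055 to 0.21 and -0.14 to 0.17 for Bgn, -0.053 to 0.068 for Fn1, -0.015 to 0.77 for Postn, -0.15 to 0.26 for Timp1 and -0.17 to 0.20 for Timp2.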
